A study of Aptenodytes patagonicus with 7 samples.

Results

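The comparison of the sexes in king penguin pectoralis muscle took in all 7 arrays of the series, 2 from birds labelled male and 5 from birds labelled female, 1 array per bird. The birds were juveniles of Aptenodytes patagonicus, taken from the wild and biopsied under isoflurane. The never-immersed (NI) group consisted of birds that had lived only on land, and it held 3 birds labelled female (NI 1, NI 2 and NI 3) and 1 labelled male (NI 4). Birds of the sea-acclimated (SA) group already swam and lived at sea, and this group held 2 birds labelled female (SA 1 and SA 2) and 1 labelled male (SA 3). No treatment was applied beyond this natural step, and no numeric age was given. RNA was hybridised to arrays made for the chicken, so each value is the signal of penguin RNA on a chicken probe. All 36897 probe sets were tested, of which 878, for 464 genes, lay on the Z chromosome and 20948, for 10002 genes, on autosomes, by the gene symbol of the array's annotation and the chromosome of that symbol in the RefSeq table of the king penguin genome (assembly bAptPat1.pri.cur).

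In birds the female carries 1 Z and 1 W chromosome and the male carries a pair of Z chromosomes. The Z is large and holds genes of every kind, whereas the W keeps few genes, most of them with a partner on Z. Birds do not switch off a whole sex chromosome, and dosage compensation acts on some Z genes and not on others, so that male tissue usually holds somewhat more RNA of many Z genes. HINTW, a W gene of the chicken that is related to the histidine triad hydrolase family, is transcribed in females only and is a common check of sex.

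The arrays had median log2 intensities of 8.58 to 8.59, and the 6 measured genes of the skeletal muscle fibre list had a mean log2 intensity of 14.00 to 14.32 in the 7 birds, far above those medians. How the sex of a bird was determined was not given in the sources used here. The label of 1 bird went against its values. NI 3, labelled female, lacked the HINTW signal of the other 4 birds labelled female, and its values lay with those of the birds labelled male at several other probe sets described next. Its label was kept, each bird is called by its labelled sex, and results are given with and without NI 3. With 2 birds labelled male, 1 in each acclimation group, the small number of arrays limits precision.

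HINTW was measured by 2 probe sets. On the brighter, the log2 intensity was 9.83 in NI 1, 10.32 in NI 2, 10.17 in SA 1 and 10.04 in SA 2, against 7.60 in NI 4 and 7.35 in SA 3, the birds labelled male. In NI 3 it was 7.57, which lay between both birds labelled male and outside the range of the other birds labelled female. With all birds HINTW was lower in birds labelled male by 2.16 (SE 0.641, limma adjusted p = 1.00), or 4.48-fold. Without NI 3 the difference was -2.61 (SE 0.180, limma adjusted p = 0.0137), or 6.11-fold, and the groups did not overlap. NI 3 was set aside for values such as this one, so the result without it is a description and not an independent test. The other HINTW probe set lay between 7.97 and 8.20 in all birds, with a difference of 0.10 (SE 0.124), and showed no separation. An exact two-sided permutation test of each probe set over the 21 ways to choose 2 of 7 birds gave p = 0.190 (0.190 after adjustment over the 2), where 0.0952 was the smallest p the design allowed.

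**Figure D1:**
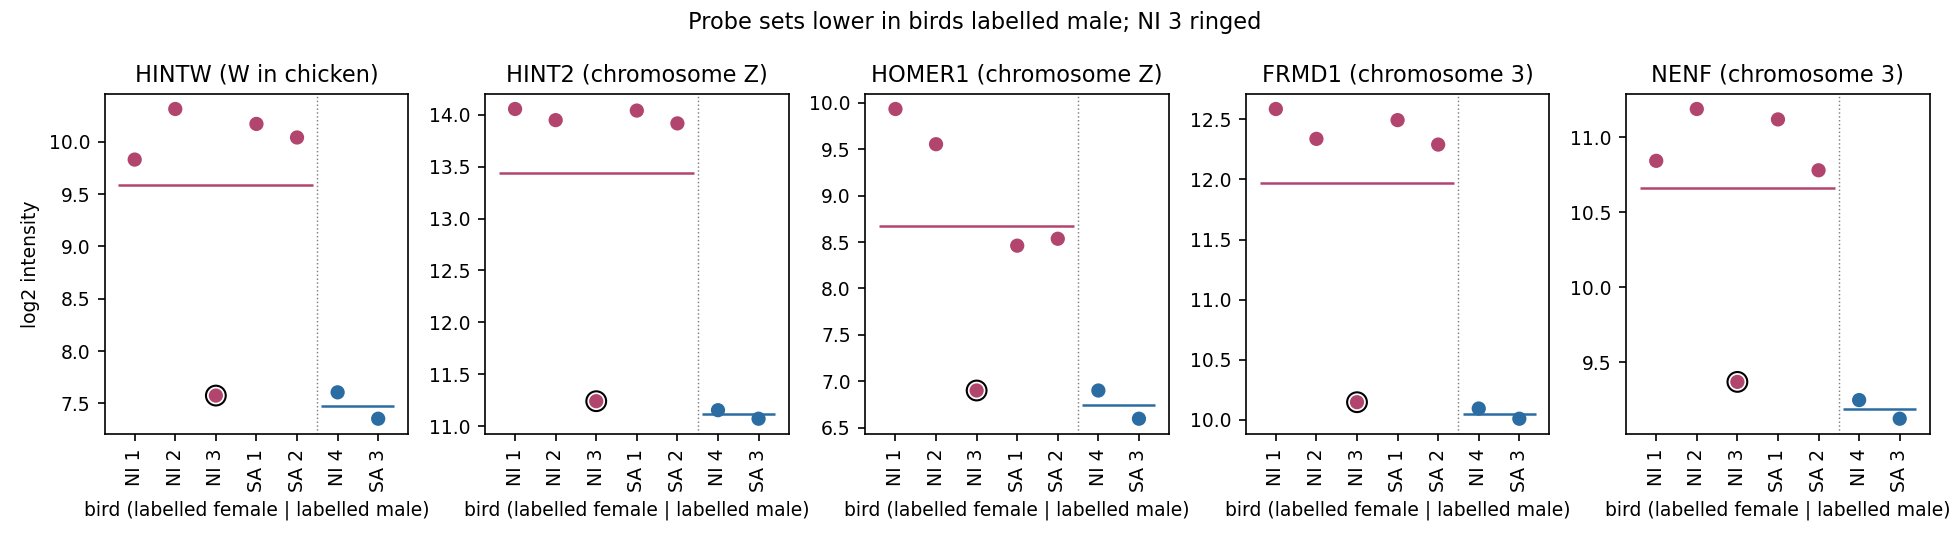
Log2 intensity of 5 probe sets in each bird (points; red, labelled female; blue, labelled male; lines, mean of each labelled sex; NI 3 ringed). In each panel NI 3 lies beside both birds labelled male and below the other 4 birds labelled female. For HINTW it was at 7.57, against 9.83 to 10.32 in those 4.

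HINT2, a Z gene for a mitochondrial histidine triad hydrolase, showed the same arrangement at a higher signal. Its log2 intensity was 14.05 in NI 1, 13.95 in NI 2, 14.04 in SA 1 and 13.92 in SA 2, against 11.24 in NI 3, 11.16 in NI 4 and 11.07 in SA 3. NI 3 lay just above both birds labelled male and far from the other 4 birds labelled female, which were close to one another. The difference was -2.39 (SE 0.684, limma adjusted p = 1.00) with all birds and -2.88 (SE 0.135, limma adjusted p = 0.0026) without NI 3. HINT2, placed on Z by its symbol, thus had a lower signal in birds labelled male, opposite to most Z genes of small p. The study could not quantify cross-hybridization, and whether this chicken probe read RNA of HINT2 alone was not tested. Only this probe set carried the symbol HINT2, and HINT1, the Z partner of HINTW in the chicken, was not analysed here.

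A second Z gene, HOMER1, which encodes a scaffold protein of synapses and muscle, had 1 probe set of this kind. It was at 9.93 in NI 1, 9.55 in NI 2, 8.46 in SA 1 and 8.54 in SA 2, against 6.90 in both NI 3 and NI 4 and 6.60 in SA 3. The difference was -1.90 (SE 0.687) with all birds and -2.37 (SE 0.233, limma adjusted p = 0.0632) without NI 3. The other 2 HOMER1 probe sets differed by -0.15 (SE 0.210) and -0.05 (SE 0.169), so the separation was a property of 1 probe set and not of the gene's signal as a whole.

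Both named genes of this kind that were placed on an autosome lay on chromosome 3, by their symbol. Whether their chicken probes read RNA of these genes alone was not tested. FRMD1, a FERM domain protein, had log2 intensities of 12.59, 12.34, 12.49 and 12.29 in NI 1, NI 2, SA 1 and SA 2, against 10.15 in NI 3, 10.09 in NI 4 and 10.01 in SA 3. NENF, which encodes the secreted factor neudesin, was at 10.84, 11.19, 11.12 and 10.78 in the same 4 birds, against 9.37 in NI 3, 9.25 in NI 4 and 9.12 in SA 3. Both genes thus split the birds as HINTW did. The differences without NI 3 were -2.38 (SE 0.148, limma adjusted p = 0.0102) for FRMD1 and -1.80 (SE 0.170, limma adjusted p = 0.0541) for NENF, and each gene's other 2 probe sets differed by between -0.12 and 0.11 with all birds.

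Over the whole array, no probe set passed an adjusted p of 0.10 with all 7 birds, in either direction (0 of 36897, 0% called higher and 0% called lower), and the smallest limma adjusted p was 0.385. At an unadjusted p under 0.05 the counts were 431 higher (1.17%) and 538 lower (1.46%) in birds labelled male. Without NI 3, 8 probe sets passed lower in birds labelled male (0.0217%) and 0 passed higher (0%), with 573 (1.55%) and 562 (1.52%) at an unadjusted p under 0.05. The 8 were those of HINT2, FRMD1, HINTW, NENF and HOMER1 and 3 with no gene symbol, at -3.01, -1.71 and -1.66. Of the 8, 2 were on Z, which is 0.228% of the Z probe sets. NI 3, which took no part in that fit, was nearer to the birds labelled male at all 8. It had been set aside for its values at several of these probe sets, so its place there is not independent of that choice.

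Leaving out SA 3 left NI 4 alone for birds labelled male, with its spread taken from the birds labelled female, and 5 probe sets were then called, for TBC1D10A, ARPP21, TTR (not placed), SDCBP and ATRNL1 (-2.38 to -3.15). In each, NI 4 was below every other bird, SA 3 included, so the size of these differences rested on that single bird. At ATRNL1 and SDCBP, SA 3 (9.53 and 10.26) was also below every bird labelled female (lowest 10.15 and 10.58). At TBC1D10A, ARPP21 and TTR it was not. No other bird left out gave a call.

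Each bird was also placed on a scale set by the other 6, with 0 for the level of birds labelled female and 1 for that of birds labelled male, at the Z probe sets that were higher in birds labelled male in those 6 (unadjusted p under 0.05). NI 3 had a median position of 0.79 over 94 such probe sets and was nearer the birds labelled male at 76 of them (80.9%). The other birds labelled female were nearer to the male level at 5.36% (NI 1), 15.5% (NI 2), 48.1% (SA 1) and 15% (SA 2) of theirs. NI 4 and SA 3 were nearer to it at 31.4% and 36.0%, with the scale then resting on 1 bird labelled male. NI 3 was the bird most often placed on the male side, but the scales were not alike. Only the scale for NI 3 left NI 3 out of the female level, and every other bird's scale counted it as female. SA 1 was on the male side more often than either bird labelled male, so no conclusion is drawn from this ranking.

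Z genes as a whole were slightly higher in birds labelled male. With 1 probe set per gene, the brightest, the median difference was 0.0437 over 464 Z genes and -0.0084 over 10002 autosomal genes, and 275 Z genes (59.3%) were above 0, against 47.7% of autosomal genes. Without NI 3 the medians were 0.0538 and -0.0109, and 281 Z genes (60.6%) were above 0. As these are summaries over genes chosen by chromosome, they are given without a test.

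The same shift was visible bird by bird. The median deviation of Z genes from their mean over all birds, less that of autosomal genes, was -0.0302 in NI 1, -0.0489 in NI 2, -0.0486 in SA 1 and -0.0133 in SA 2. NI 4 and SA 3, the birds labelled male, had 0.0580 and 0.0350, and NI 3 had 0.0494. The birds labelled female averaged -0.0183 ± 0.0406 (SD, n = 5) and those labelled male 0.0465 ± 0.0163 (SD, n = 2), and the groups overlapped only through NI 3. In muscle biopsies, fewer cells of a type and less RNA per cell cannot be told apart.

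**Figure D2:**
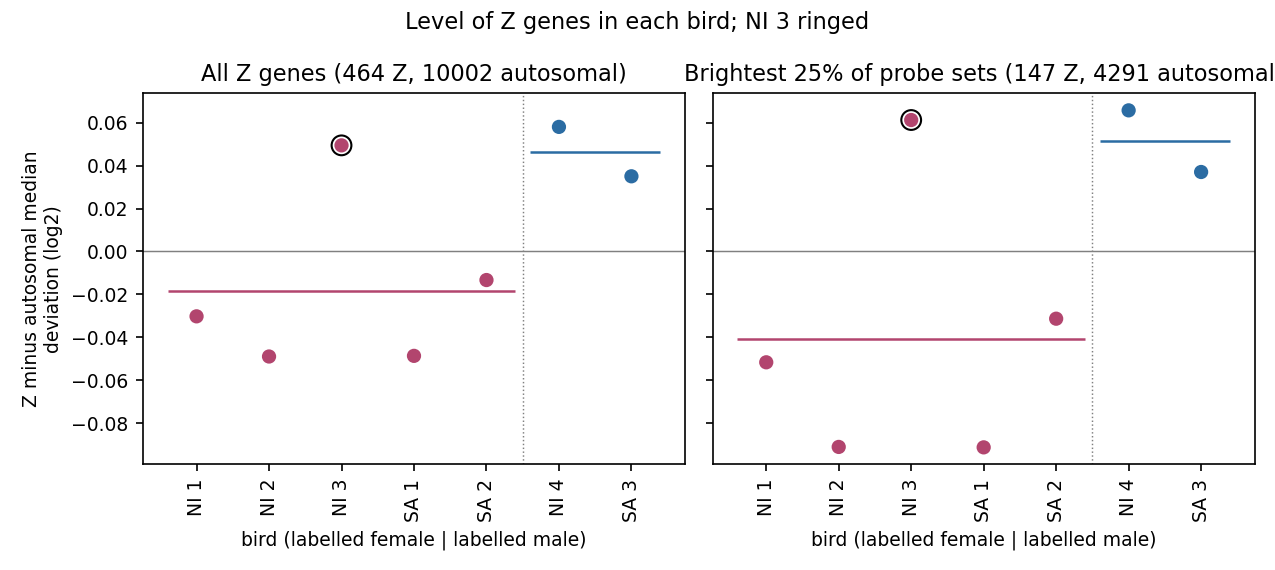
Median deviation of Z genes minus that of autosomal genes (log2, y axis) in each bird, for all Z genes and for the brightest 25% of probe sets (red, labelled female; blue, labelled male; lines, means; NI 3 ringed). NI 3 (0.0494) lies between NI 4 (0.0580) and SA 3 (0.0350), and the other 4 birds labelled female are below 0.

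The size of the shift differed between classes of brightness. Among the brightest 25% of probe sets, which held 147 Z genes, the median difference was 0.0684 with all birds (-0.0118 for autosomal genes) and 0.104 without NI 3 (-0.0142). With all birds it was 0.0351 among the dimmest 25%, 0.0091 among the next 25% and 0.0457 among the third 25%. The shift was thus largest among the brightest but did not rise steadily. Dim probe sets hold a larger share of background signal, and the part of background in the smaller shifts was not tested.

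The shift did not spread evenly over Z genes. Most had differences close to 0, as autosomal genes did, and the share of Z genes was raised between 0.4 and 0.8. The boundary of 0.4 was chosen after the distribution was seen, and whether these genes form a separate group was not tested. Above 0.4 there were 76 Z genes (16.4%) and 277 autosomal genes (2.77%), and below -0.4 there were 3 Z genes (0.647%) and 202 autosomal genes (2.02%). Among the brightest 25% of probe sets 37 of 147 Z genes (25.2%) were above 0.4, against 3.45% of autosomal genes. Without NI 3, 83 Z genes (17.9%) were above 0.4, of which 75 were above it with all birds too.

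**Figure D3:**
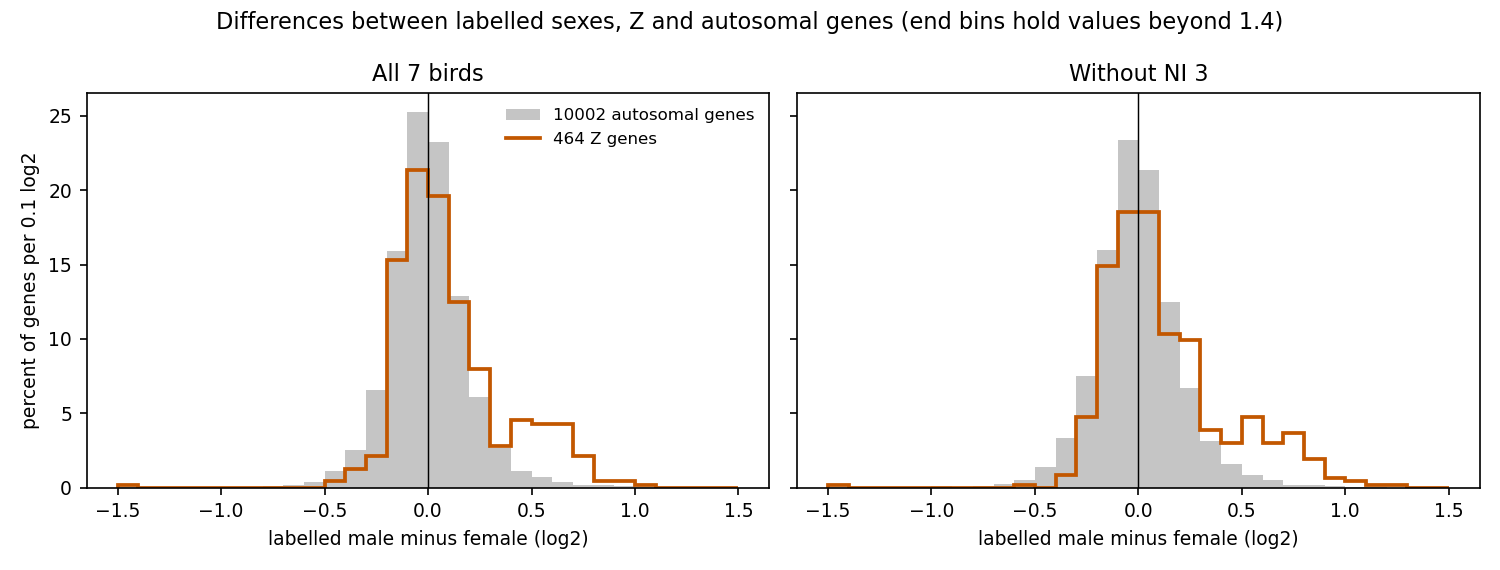
Share of genes (percent, y axis) by the difference between birds labelled male and labelled female (log2, x axis), for 464 Z genes (orange line) and 10002 autosomal genes (grey), with all birds and without NI 3. Both sets peak near 0, and a larger share of Z genes than of autosomal genes lies above 0.4 (16.4% of Z genes with all birds).

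Single Z probe sets gave the same picture against the background of the array. At an unadjusted p under 0.05, 75 of 878 Z probe sets (8.54%) were higher in birds labelled male, against 1.17% of all probe sets, and 5 (0.569%) were lower, against 1.46%. Without NI 3 the counts were 94 (10.7%) and 5 (0.569%). The share depended on which bird labelled male was present: without SA 3 the higher count was 25 (2.85%, against 2.02% of all probe sets), and without NI 4 it was 51 (5.81%, against 1.18%). Without SA 2 the lower count was 11 of 878. No share over all probe sets is given for that count, so it is not set against a background. Both birds labelled male were above every bird labelled female at 62 Z probe sets (7.06%, against 2.26% of all) and below every one at 25 (2.85%, against 3.72%). With NI 3 set aside these became 116 (13.2%, against 3.79%) and 35 (3.99%, against 5.74%). None of the Z probe sets that were higher passed the adjusted threshold, with or without NI 3.

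Among chromosomes with at least 50 genes, Z had a median above that of all 27 autosomes, which ran from -0.0305 to 0.0149, and a larger share of genes above 0 (59.3%, against 43.2% to 54.3%). Along Z, in 8 stretches of 58 genes each, the median ran from -0.0053 to 0.0884 with all birds. The stretch from DAB2 to CENPK was highest, with 67.2% of genes above 0, and both end stretches, NOL6 to FYB1 (0.0014) and PTBP3 to MELK (-0.0053), were lowest. Without NI 3 the end stretches were at -0.0087 and 0.0244 and the stretch from DMRT1 to TRPM3 was highest at 0.0991. DMRT1, at the start of that stretch, is the Z gene that directs testis formation in the chicken. Its own difference was below 0, at -0.11 with all birds and -0.14 without NI 3.

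**Figure D4:**
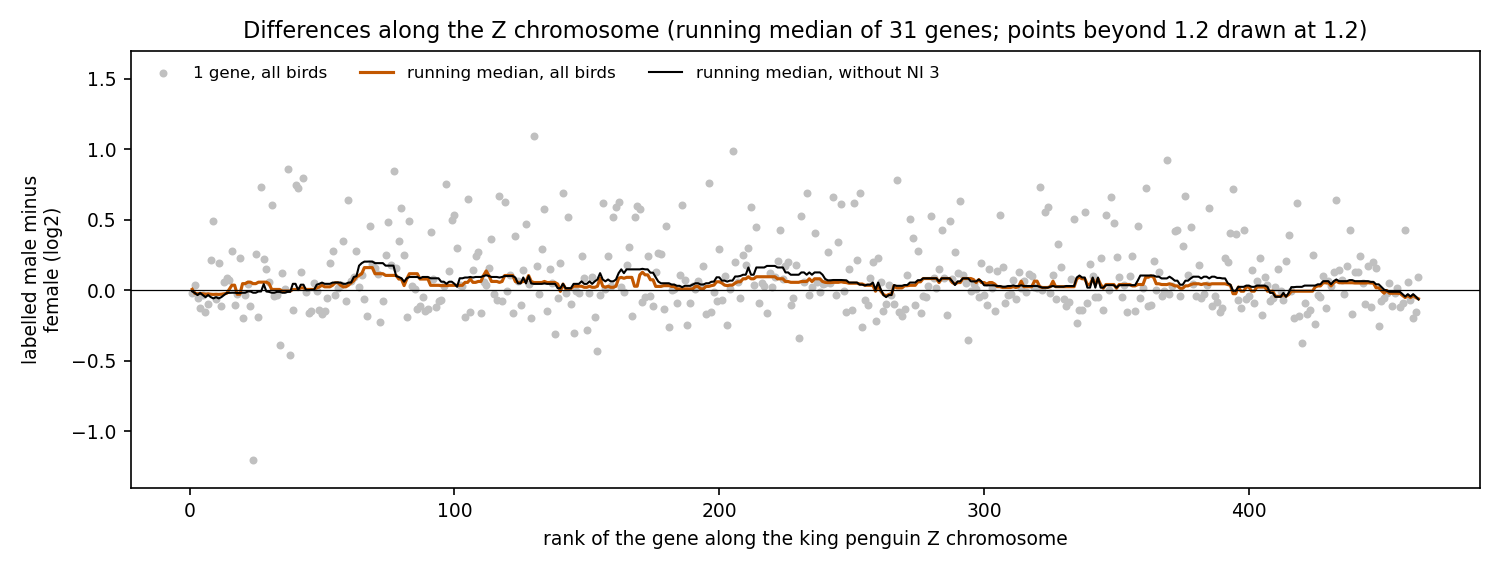
Difference between birds labelled male and labelled female (log2, y axis) for 464 Z genes by rank along the king penguin Z chromosome (points, all birds; lines, running median of 31 genes with all birds and without NI 3). The running median stays close to 0 and is mostly above it, and high genes occur along the whole chromosome.

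Of the 15 Z genes of smallest p, 14 were higher in birds labelled male, by 0.50 to 0.92 (1.42-fold to 1.89-fold), and HINT2 was lower. In 12 of the 14 both birds labelled male were above every bird labelled female, and in all 14 above the 4 other than NI 3. Over all probe sets this held for 2.26% with all birds and 3.79% with NI 3 set aside. Over Z probe sets the shares were 7.06% and 13.2%. NI 3 was above the other 4 birds labelled female in 13 of the 14, and below both birds labelled male in 12. The 14 were picked by a p from the fit that counted NI 3 as female, so these counts followed in part from the choice. None of the 14 passed the adjusted threshold (limma adjusted p = 1.00 for each with all birds, and 0.553 at the lowest without NI 3), and these genes were picked for their p, so the values are a description.

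**Figure D5:**
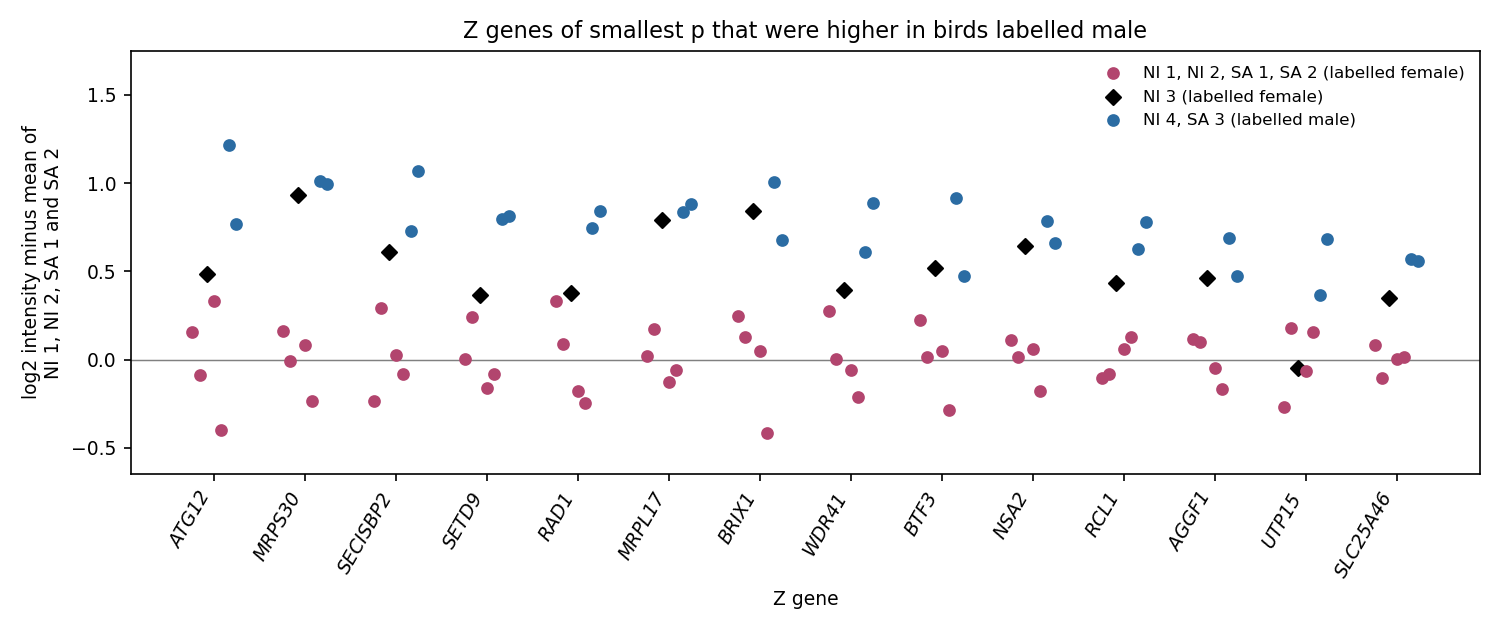
Log2 intensity of 14 Z genes in each bird, less the mean of NI 1, NI 2, SA 1 and SA 2 (y axis; red circles, those 4 birds; black diamonds, NI 3; blue circles, NI 4 and SA 3). NI 3 is above the other 4 birds labelled female in 13 of the 14 genes, and UTP15 is the exception.

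MRPS30, of the mitochondrial ribosome, was at 9.43, 9.26, 9.35 and 9.03 in NI 1, NI 2, SA 1 and SA 2. It was at 10.20 in NI 3, 10.28 in NI 4 and 10.26 in SA 3. NI 3 was apart from the other birds labelled female by more than their whole range, and the difference was 0.85 (SE 0.255), or 1.01 (SE 0.155) without NI 3. MRPL17, of the large mitochondrial subunit, was at 10.98, 11.13, 10.83 and 10.90 in the same 4 birds, against 11.75 in NI 3, 11.80 in NI 4 and 11.84 in SA 3. Its difference was 0.73 (SE 0.219), and a second MRPL17 probe set gave 0.71 (SE 0.213) and another 0.17 (SE 0.142). BRIX1 and NSA2, which act in assembly of the large ribosomal subunit, differed by 0.73 (SE 0.222) and 0.62 (SE 0.191). UTP15 and RCL1, which act in processing of the small subunit's RNA, differed by 0.52 (SE 0.160) and 0.61 (SE 0.173).

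SETD9, a SET domain protein, had the smallest p on Z. It was at 10.75, 10.99, 10.59 and 10.67 in NI 1, NI 2, SA 1 and SA 2, 11.12 in NI 3, 11.55 in NI 4 and 11.57 in SA 3, a difference of 0.75 (SE 0.152). The groups did not overlap, with NI 3 the highest bird labelled female, but 2 other SETD9 probe sets gave 0.01 (SE 0.223) and 0.27 (SE 0.250). RAD1, a part of the clamp that signals DNA damage, was between 7.74 and 8.36 in birds labelled female and at 8.73 in NI 4 and 8.83 in SA 3, a difference of 0.75 (SE 0.166). ATG12, a ubiquitin-like protein that autophagy attaches to its target, was at 9.97 to 10.86 in birds labelled female, with NI 3 the highest, and at 11.58 in NI 4 and 11.14 in SA 3. Its difference was 0.92 (SE 0.227), and a dimmer ATG12 probe set gave -0.02 (SE 0.159).

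The other leading genes covered unlike roles. WDR41, of a complex at lysosomes, differed by 0.69 (SE 0.182), AGGF1, an angiogenic factor, by 0.52 (SE 0.147), and SLC25A46, of the outer mitochondrial membrane, by 0.50 (SE 0.150). SECISBP2, which lets ribosomes insert selenocysteine, differed by 0.78 (SE 0.235), and of its other 6 probe sets the next brightest gave 0.48 (SE 0.145). Of the 243 Z genes with more than 1 probe set, 146 had probe sets of both signs, so a gene's value often rested on the probe that was read.

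Few Z genes were far lower in birds labelled male. After HINT2, the Z genes with the most negative differences were C1QTNF3, a secreted protein of the C1q and TNF family, at -0.46 (SE 0.351), and GCNT4, a glycosyltransferase, at -0.43 (SE 0.235). ADAMTS12, a secreted metalloprotease, was at -0.39 (SE 0.202) and ANKRD34B, an ankyrin repeat protein, at -0.37 (SE 0.162). None of these 4 passed the adjusted threshold. The C1QTNF3 value rested on SA 2, at 10.69 where every other bird was between 9.07 and 9.37. ANKRD34B was at 8.15 in NI 4 and 8.03 in SA 3 and between 8.16 and 8.65 in birds labelled female, so its groups were barely apart.

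Lists of genes by role, all on Z in the chicken, were counted next. The lists were chosen with earlier results of these data known, so their counts are a description. Some of their members were not placed on a chromosome by the penguin table, so each count is also given for the members it placed on Z. Members that the table put on another chromosome were dropped. These were 2 of protein turnover and 1 each of energy metabolism, growth signalling and transcription. At an unadjusted p under 0.05, 190 of all 12920 genes were higher and 207 lower in birds labelled male, and 52 of 464 Z genes were higher and 2 lower. Without NI 3, 65 of the 464 Z genes were higher and 1 lower, so the background of the list counts rose too. In the list of energy metabolism and mitochondria, 9 of 23 measured genes were higher and 0 lower, with a median difference of 0.11. The median was -0.0058 over all genes and 0.0437 over all Z genes, and the latter is the baseline for each role list. All 9 were among the 18 members placed on Z, whose median was 0.49, and 5 members were not placed. Without NI 3 the count was 10 and 0. The 9 were MRPS30, SLC25A46 and RCL1, given before, and AUH (0.51, SE 0.168), NNT (0.49, SE 0.162), NDUFAF2 (0.65, SE 0.228), COX7C (0.64, SE 0.250), ISCA1 (0.69, SE 0.276) and MRPS27 (0.60, SE 0.258). AUH acts in leucine breakdown, NNT makes mitochondrial NADPH, NDUFAF2 assembles complex I, COX7C is part of cytochrome c oxidase and ISCA1 builds iron-sulfur clusters. RCL1 acts in ribosomal RNA processing rather than in energy metabolism. The mean level of this list was 9.66 to 9.88 in NI 1, NI 2, SA 1 and SA 2, 9.99 in NI 3, 10.03 in NI 4 and 10.06 in SA 3.

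In the contractile list 2 of 8 measured genes were higher and 0 lower (median 0.14, or 0.15 without NI 3, with 2 again higher). Of the 6 placed on Z, 1 was higher (median 0.04). CMYA5, a protein of the sarcomere's Z-disc region, was at 11.71 to 12.44 in birds labelled female and at 12.45 in NI 4 and 12.72 in SA 3, a difference of 0.58 (SE 0.204). TPM2, a tropomyosin of the thin filament, was not placed on a chromosome by the penguin table and is on Z in the chicken. On its brightest probe set NI 1, NI 2, NI 3 and NI 4 had 13.30, 13.30, 13.26 and 13.72, whereas SA 1, SA 2 and SA 3 had 10.20, 10.26 and 12.17. The signal thus followed acclimation first, and its difference between labelled sexes, 1.15 (SE 0.284), was 0.44 within NI birds and 1.94 within SA birds. The other 5 TPM2 probe sets gave -0.10 to 0.38. MYORG (not placed), a glycosidase made in differentiating muscle cells, was at 0.38 (SE 0.200), MEF2C, a transcription factor of muscle genes, at 0.17 (SE 0.140) and TMOD1, which caps the thin filament, at 0.11 (SE 0.139).

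In the list of growth, hormone and cytokine signalling, 0 of 21 measured genes were higher or lower (median 0.08, the same over the 18 placed on Z), and 1 was higher without NI 3. Values were 0.34 (SE 0.217) for LIFR (not placed), the receptor of leukaemia inhibitory factor, 0.19 (SE 0.131) for CNTFR, the receptor of ciliary neurotrophic factor, and 0.26 (SE 0.187) for VLDLR, a lipoprotein receptor. FGF10, a growth factor, was at 0.18 (SE 0.134) and ITGA2, an integrin that binds collagen, at -0.19 (SE 0.140). These were the members of smallest p with all birds. ITGA1, another integrin of the list, had a larger difference, 0.59 with all birds and 0.84 without NI 3. Of the 21, 14 were above 0. In the list of protein turnover, trafficking and chaperones, 2 of 22 were higher and 0 lower (median 0.07), namely ATG12 and UBE2R2, a ubiquitin-conjugating enzyme (0.99, SE 0.278) that was not placed, so that 1 of the 18 placed on Z was higher (median 0.09). Without NI 3 it held 3 higher, the third being the co-chaperone DNAJA1 (0.80, SE 0.189, against 0.59 with all birds), and 1 lower. DNAJA1 was at 11.85 in NI 3, the highest of all birds. UBQLN1, which carries proteins to the proteasome, was at 0.66 (SE 0.321) and RAD23B, of DNA repair and proteasome delivery, at 0.27 (SE 0.122). In the list of transcription, chromatin and RNA, 2 of 18 were higher and 0 lower (median 0.11, the same over the 16 placed on Z), and 4 were higher without NI 3. The 2 were HNRNPK and BTF3, described next, and without NI 3 they were joined by CDK7, a kinase of transcription initiation (1.24, SE 0.513, but 2.05 within NI birds and 0.03 within SA birds with all birds kept, so that it rested on NI 4), and SREK1, a splicing regulator (0.48, SE 0.179). NFIL3, a transcription repressor, was at 0.37 (SE 0.255).

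Genes on Z in the chicken whose partner is kept on its W chromosome were of interest because the female then holds a second, related copy. Of 15 measured, 12 were placed on Z and 3, SMAD2, TXNL1 and ZNF532, were not placed. Of the 15, 10 were above 0, with a median of 0.14 (0.11 without NI 3), or 0.14 (0.15 without NI 3) over the 12. At an unadjusted p under 0.05, 2 of the 15 were higher and 0 lower. Of all 464 Z genes, 59.3% were above 0 and 52 were higher, with a median of 0.0437 (0.0538 without NI 3). The partner counts are therefore not read as particular to these genes. HNRNPK, an RNA-binding protein, was at 10.39, 10.30, 10.18 and 10.15 in NI 1, NI 2, SA 1 and SA 2, against 11.10 in NI 3, 11.04 in NI 4 and 10.97 in SA 3. NI 3 was thus the highest bird, and the difference was 0.61 (SE 0.222) with all birds and 0.75 (SE 0.133, limma adjusted p = 0.760) without it, while 2 other HNRNPK probe sets gave 0.20 (SE 0.188) and 0.03 (SE 0.164). BTF3, which binds nascent proteins at the ribosome, was at 11.03, 10.81, 10.85 and 10.51 in the same 4 birds, 11.32 in NI 3, 11.71 in NI 4 and 11.27 in SA 3, a difference of 0.63 (SE 0.171).

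The remaining partner genes had differences between -0.10 and 0.56. CHD1, a chromatin remodeller often used to sex birds, was at 0.56 (SE 0.408), with birds labelled female spread from 7.79 to 9.42. VCP, an ATPase that unfolds proteins, was at 0.28 (SE 0.215), and TNPO1, a nuclear import receptor, at 0.31 (SE 0.241). RASA1, a Ras inhibitor, MIER3, a transcription regulator, and ZSWIM6, a zinc finger protein, were each at 0.14. GOLPH3, of the Golgi, was at 0.06, UBAP2, a ubiquitin-binding protein, at 0.04, SMAD2, of TGF-beta signalling, at -0.01, TXNL1, a thioredoxin-like protein, at -0.0040, SUB1, a transcription coactivator, at -0.04, ZNF532 at -0.09 and SPIN1, a histone reader, at -0.10. A dimmer RASA1 probe set gave 0.73 (SE 0.245), against 0.14 for the brightest, and the part of the W copies in any of these signals was not tested.

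The probe sets with the smallest p on the whole array were autosomal, and here NI 3 lay with the other birds labelled female. They were picked after their values were seen. The p came from the fit that counted NI 3 as female, which favours probe sets where NI 3 lies with those birds. Its place at them thus followed in part from the choice, and no conclusion on NI 3 is drawn from it. POT1, which binds telomere ends, was at 8.75, 9.004, 8.67, 8.86 and 8.90 in NI 1, NI 2, NI 3, SA 1 and SA 2, against 10.05 in NI 4 and 10.20 in SA 3. The difference was 1.28 (SE 0.138, limma adjusted p = 0.385), and 1.25 (limma adjusted p = 0.175) without NI 3. C1QB, a chain of complement C1q, was at 9.24 to 9.51 in birds labelled female and at 10.43 in NI 4 and 10.37 in SA 3, a difference of 0.99 (SE 0.127). CFI, a complement regulator, was at 9.76 to 10.01 against 10.68 and 10.84, a difference of 0.84 (SE 0.128), and PLD4, a nuclease of endolysosomes, at 7.55 to 8.43 against 9.73 and 9.98, a difference of 1.95 (SE 0.267). POT1 had 1 probe set, and the other probe sets of C1QB, CFI and PLD4 gave differences between -0.22 and 0.08, so the separation was again found on 1 probe set per gene.

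Hormone genes and markers of other cell types were set beside these results. In a list of 17 measured genes of sex steroids and the growth axis, 0 were higher or lower with all birds (median -0.00059), and 1 was higher without NI 3, HSD17B4, a Z gene for a peroxisomal enzyme (0.73, SE 0.362, with all birds and 0.93, SE 0.242, without). SRD5A1, which makes dihydrotestosterone, was at 0.31 (SE 0.152) and IGF1 at 0.25 (SE 0.135), whereas FKBP5, a chaperone of steroid receptors, was at -0.29 (SE 0.205). Of the 7 leukocyte markers measured, 6 were above 0, 0 passed with all birds and 1 without NI 3. That was CD3E, of the T cell receptor complex (0.39, SE 0.189, and 0.47, SE 0.167), and the mean level of the leukocyte list was 8.97 to 9.27 in birds labelled female and 9.24 to 9.27 in those labelled male.

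Lists for fibroblasts (12 measured), adipocytes (8), endothelium (7), erythroid cells (4), nerve (6), satellite cells (4), smooth muscle (4) and slow fibres (7) had 0 members higher or lower at an unadjusted p under 0.05 on the brightest probe set of a gene, with or without NI 3. In each of them the ranges of the list's mean level in the labelled sexes overlapped. With all birds, 9 of 12 fibroblast, 4 of 4 erythroid, 4 of 4 smooth muscle and 3 of 4 satellite genes were above 0. So were 4 of 7 slow fibre, 3 of 6 nerve, 2 of 8 adipocyte and 2 of 7 endothelial genes. Of all 12920 genes, 48.4% were above 0. The leukocyte list was thus not the only one with most members above 0, and other lists had few. With so few genes per list, no conclusion is drawn from these counts. In the skeletal muscle fibre list 1 of 6 genes was higher, TNNC2, the fast troponin C (0.35, SE 0.122). The part of cell makeup in the differences given before was not tested.

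The difference between labelled sexes was finally compared between the acclimation groups. No probe set passed for an interaction of sex and acclimation (0 of 36897, 0% called, with 1155 at an unadjusted p under 0.05 and a smallest limma adjusted p of 0.725). With 1 bird labelled male in each group, the interaction rested on single birds. For HINTW the difference was -1.64 within NI birds, where NI 3 was counted as labelled, and -2.76 within SA birds. HINT2 differed by -1.93 and -2.90 in the same order, and POT1, picked by a p that counted NI 3 as female, by 1.24 and 1.32.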

How the data were processed

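Pectoralis RNA of 7 juvenile king penguins was measured on Affymetrix chicken arrays, 1 per bird. The authors deposited log2 values: of the perfect-match probes that exceeded background on any array, the 1 ranked highest over all arrays stood for its probe set, and arrays were then quantile normalized. Limma is named in the submitters' processing notes, with no version.

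Sex was taken from the labels. The difference between labelled males and females was fitted to the deposited log2 values with limma 3.58.1 in R 4.3.3, with acclimation as a term (4 residual and 4.42 prior degrees of freedom), and Benjamini-Hochberg adjustment was made across the 36897 probe sets, with 0.10 as threshold, following the study. Nothing was filtered. P-values measure the spread between birds. Folds are of intensity on chicken probes, not of transcript number.

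Of the probe sets, 26108 carried 1 gene symbol, 171 several and 10618 none. The annotation holds no chromosome, so that of the same symbol in the king penguin RefSeq table was used in its place, which placed 10548 of 12920 symbols. Of 426 W genes there, 425 carry only a locus number, and HINTW stood for the W chromosome, on which it lies in the chicken. Named genes that the table did not place are called not placed in the text.

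Named were HINTW and its Z relatives, the 15 Z genes of smallest p, the 5 Z genes most in the other direction, up to 5 genes per role list and 4 per other list, and genes called. Members and lists were chosen with earlier results of these data known. Alternatives were no acclimation term, autosomal centring, cyclic loess, filters on dim probe sets, other limma priors, array weights, a threshold of 0.05, other choices of probe sets, and each bird left out. The script was tested on simulated arrays.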

Additional observations from a re-analysis of the deposited data

Results flagged for a closer look

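Among the 5 birds labelled female, the highest or lowest bird was tested for its distance from the rest in 80 values, the named probe sets and the levels of Z genes, and 10 stood apart (gap over range above 0.71). Chance alone places about 1 group in 20 past this limit where values were not selected. In 8 of the 10 the bird was NI 3, but 7 of these 8 were among the probe sets picked because they were called without NI 3, so that rate is not theirs. Its log2 intensity was 7.57 for HINTW (gap over range 0.823), 11.24 for HINT2 (0.951), 10.15 for FRMD1 (0.879), 9.37 for NENF (0.775) and 11.10 for HNRNPK (0.742), and 6.83, 7.53 and 7.72 for 3 probe sets with no symbol (0.748, 0.723 and 0.723). For HNRNPK NI 3 was above the other birds labelled female, and in the other 7 it was below them.

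The remaining 2 were in other birds. C1QTNF3 was at 10.69 in SA 2, against 9.10 to 9.37 in the other birds labelled female, and VLDLR was at 12.82 in SA 1, against 11.91 to 12.13.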

How the results depend on the processing

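No probe set was called under any setting that kept all birds, and the interaction gave 0 calls under each of its settings. Leaving out 1 bird at a time, calls ranged from 0 to 8 (8 without NI 3, 5 without SA 3), and from 0 to 1 with 1 probe set per Z gene, HINT2 without NI 3. HINTW ranged from -2.76 to -1.64 and passed only without NI 3 (-2.61). The median over Z genes stayed above 0 in every setting (0.0298 to 0.0601). Z probe sets higher in birds labelled male at an unadjusted p under 0.05, a count added after the data were seen, numbered 75 of 878. With 1 bird left out they ranged from 25 (without SA 3) to 94 (without NI 3). Without the dimmest 50% they were 44 of 354, a smaller count but a larger share of those tested. Z probe sets lower in birds labelled male ranged from 4 to 11 of 878 with 1 bird left out (11 without SA 2, against 5). They were 2 of 354 without the dimmest 50% and 8 of 878 with array weights. No share over all probe sets is given for these settings, and the cause was not tested.

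Of 74 other named probe sets, 60 kept their sign in all 15 settings and 14 did not. Without an acclimation term GOLPH3 was at -0.0136 and TXNL1 at 0.0140, with cyclic loess SMAD2 at 0.0080 and TXNL1 at 0.0176, and with array weights SMAD2 at 0.0246 and TXNL1 at 0.0605. With 1 bird left out, GOLPH3 ranged from -0.0523 to 0.170, SUB1 from -0.128 to 0.0110, SMAD2 from -0.125 to 0.0911, UBAP2 from -0.0445 to 0.129, TXNL1 from -0.143 to 0.143, SPIN1 from -0.224 to 0.0507, VCP from -0.0186 to 0.612, ZNF532 from -0.213 to 0.0111, ZSWIM6 from -0.153 to 0.410, MYORG from -0.0431 to 0.853, TMOD1 from -0.0742 to 0.275, LIFR from -0.0719 to 0.793, NFIL3 from -0.173 to 0.984 and FKBP5 from -0.735 to 0.205. None of these 14 was called. No paired analysis was possible because the bird numbers of the labels are shared by different animals. The table holds no background signal, so what was measured above background is unknown for dim probe sets, and the 2 birds labelled male limit every value.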
